A study of Mus musculus with 8 samples.

Results

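iPS line 3 is 1 of the 3 mouse induced pluripotent stem (iPS) cell lines of a study of integration-free iPS cells, and its RNA was set against that of an embryonic stem (ES) cell control. The comparison rests on the 2 arrays titled for iPS line 3 and the 2 titled ES control, 4 of the 8 arrays in all. The other 4 arrays are 2 of iPS line 1 and 2 of iPS line 2. iPS line 3, iPS line 1, iPS line 2 and the ES control are all given as C57BL/6 and male, and all were taken at passage 7 to 10. Every group was grown in N2B27, a serum-free medium, with mouse leukaemia inhibitory factor (LIF), and RNA was extracted with Trizol. The sources used here do not give the starting cells, the reprogramming factors or the vectors. Each group is 1 line, the ES control included. A difference thus describes 2 lines and does not say which of them departs from other lines of its kind. The titles call the 2 arrays of a group biological replicates, but whether each had a culture of its own is not labelled. The spread behind a p-value is that within the pairs of all 8 arrays, drawn toward the spread of genes of similar signal. It reflects no more than differences between arrays of the same line, part of which may be technical.

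iPS cells are body cells returned to a state in which they can form all tissues of the embryo, and ES cells are the natural counterpart taken from the early embryo. A network of transcription factors around Oct4 (gene Pou5f1), Sox2 and Nanog holds both in that state, and LIF supports it through STAT3. Pluripotent cells rely strongly on glycolysis, many genes of which are targets of the hypoxia-inducible factors (HIF), transcription factors that bind the core letters ACGTG or GCGTG. Imprinted genes, read from 1 parental copy only, and genes of the sex chromosomes are commonly inspected when an iPS line is set against ES cells.

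Each array held 45101 probe sets, and 14004 genes were tested with 1 probe set each. Values are MAS5 signals, a linear brightness scale, and a difference is given as log2(signal + 12) in iPS line 3 minus the ES control with its standard error (SE). A low-signal floor was set at 37.1, which 58.1% to 61.4% of an array's probe sets exceeded, and the number of arrays limits the precision. The 2 arrays of iPS line 3 correlated across genes (genes are not replicates) at r = 0.983 and the 2 ES arrays at 0.981. An array of iPS line 3 correlated with an ES array at 0.978 to 0.980. The 3'/5' signal ratio of beta-actin, a measure of RNA integrity, was 1.59 and 1.60 in iPS line 3 and 1.49 and 1.62 in the ES control. It was 1.74 and 1.79 in iPS line 2, which stood apart from the other lines, with correlations of 0.965 to 0.968 with iPS line 3. All 8 defining markers of pluripotent cells lay above the floor in all 4 arrays, with a summed signal of 99958 to 103686 in iPS line 3 and 101722 to 109371 in the ES control, and limma called 0 of them (1 had an unadjusted p under 0.05).

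iPS line 3 differed from the ES control in a small share of genes, and more of these were lower than higher. limma called 583 of 14004 genes at an adjusted p under 0.05 (4.16%), 223 higher (1.59%) and 360 lower (2.57%) in iPS line 3. Most differences were small: 23 of the higher genes (0.164%) and 40 of the lower genes (0.286%) differed at least 2-fold. The arrays of the groups did not overlap in 6775 genes (48.4%), so that separation alone says little with 2 arrays a group. All 583 called genes were among them, so a lack of overlap adds nothing to a call. The share of higher calls was 38.3%, and 51.0% once every array had been centred on its median signal. The number called was 22 without the intensity trend of the variance. Leaving out any 1 of the 4 arrays also gave fewer calls, but it leaves 1 array in a group, which costs precision by itself. A call lost under an omission thus does not show that the difference rests on the array left out. The plot of differences by signal level shows that small differences were called mainly among bright genes.

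**Figure D1:**
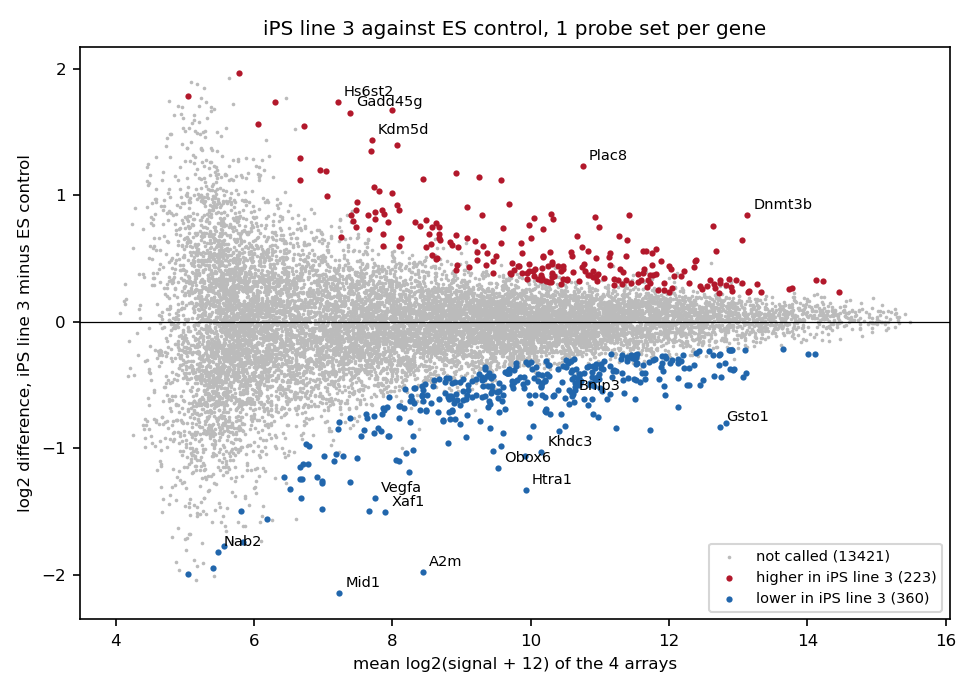
Each point is 1 of 14004 genes, with the mean log2(signal + 12) of the 4 arrays on the horizontal axis and the log2 difference of iPS line 3 minus the ES control on the vertical axis. The 223 genes called higher (red) and the 360 called lower (blue) in iPS line 3 lie outside a grey band that narrows with signal.

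Among the 15 largest increases were genes of heparan sulfate, the actin cytoskeleton and neurons. Hs6st2, an X-linked gene for a heparan sulfate 6-O-sulfotransferase, had signals of 225 and 295 in iPS line 3, against 65.2 and 72.9 in the ES control. Both arrays of iPS line 3 lay far above both ES arrays (log2 difference 1.74 ± 0.20 SE, n = 2 arrays each, limma adjusted p = 0.00041), a 3.33-fold increase. The difference of Hs6st2 from the same ES arrays was 1.46 in iPS line 1 and 1.18 in iPS line 2. Tagln, the gene of the actin binder transgelin, had 512 and 380.3 in iPS line 3 and 116 and 145 in the ES control (1.68 ± 0.19, limma adjusted p = 0.000365). Acta2, smooth muscle alpha-actin, had 719 and 710.1 in iPS line 3 and 332 and 288 in the ES control (1.18 ± 0.09, limma adjusted p = 6.73e-05). The 2 actin genes thus rose with tight replicates in Acta2 and a wider pair in Tagln. Gadd45g, a growth arrest gene, had 284 and 287 in iPS line 3, against 83.2 and 81.6 in the ES control (1.65 ± 0.19, limma adjusted p = 0.000433). Plac8, a small cysteine-rich protein gene first found in placenta, had 2622 and 2625 in iPS line 3 and 1091 and 1132 in the ES control (1.23 ± 0.07), with the smallest adjusted p of the named genes (limma, 1.03e-05). Crmp1, a phosphoprotein of growing axons, had 393 and 451 in iPS line 3 and 143 and 163 in the ES control (1.40 ± 0.15). The 15 were chosen from genes without overlap between the groups, and for these 6 genes the call held on leaving out each array in turn.

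Several other large increases came from dim genes, while Kdm5d, Pax6, Ina and Lef1 are described with their lists. Fndc3c1 rose at least 2.58-fold and Cmtm8 at least 1.32-fold, where the ES arrays lay at or under the floor. Cysrt1 (1.74 ± 0.43), Mlycd, the malonyl-CoA decarboxylase gene (1.56 ± 0.40), and the receptor tyrosine kinase-like gene Ror1 (1.29 ± 0.27) were called, but each of these 5 lost the call without at least 1 array. Fndc3c1 was not called without replicate 1 of iPS line 3 or replicate 1 of the ES control, with differences of 1.45 to 2.48 over the 4 omissions. For Cysrt1 another probe set of the gene had the opposite sign.

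The largest decreases included genes of the extracellular space and of growth factor signalling. Mid1, a gene annotated to chromosome X, encodes a microtubule-associated ubiquitin ligase. It had 57.6 and 61.6 in iPS line 3, against 327 and 283 in the ES control (-2.14 ± 0.24, limma adjusted p = 0.000389). The groups lay far apart, but 1 of the 2 probe sets of Mid1 had the opposite sign. The difference of Mid1 from the same ES arrays was -2.23 in iPS line 1 and -1.95 in iPS line 2. A2m, the protease inhibitor alpha-2-macroglobulin, had 134 and 198 in iPS line 3 and 794 and 578 in the ES control (-1.97 ± 0.18, limma adjusted p = 0.000172). Htra1, a secreted serine protease, had 639 and 567 in iPS line 3 and 1596 and 1474 in the ES control (-1.33 ± 0.14), and both of its probe sets were called lower. Xaf1, an interferon-inducible gene that antagonises the apoptosis inhibitor XIAP, had 125 and 134 in iPS line 3 and 399.9 and 376 in the ES control (-1.50 ± 0.16, limma adjusted p = 0.000296). All 4 of these genes kept the call on leaving out each array.

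In 6 of the 15 largest decreases both arrays of iPS line 3 lay at or under the floor. The bounds were at least 2.51-fold for Prkch, a protein kinase C gene, 2.21-fold for the complement gene C2, 2.04-fold for Crispld2, 1.92-fold for Nab2, a corepressor of EGR transcription factors, 1.90-fold for Igfbp5, an insulin-like growth factor binding protein gene, and 1.44-fold for Syne1. Tktl1 (-1.56 ± 0.36), Inpp5j (-1.49 ± 0.38), the apolipoprotein gene Apom (-1.48 ± 0.31) and Dclk3 (-1.32 ± 0.28) were also lower. All 10 of these lost the call on leaving out at least 1 array: Prkch without replicate 1 of iPS line 3 and without either ES array (differences of -2.19 to -1.29 over the 4 omissions), C2 without replicate 2 of iPS line 3 or of the ES control (-1.90 to -0.44), Inpp5j without replicate 1 of iPS line 3 and either ES array, and the other 7 without any 1 of the 4. Over the same omissions the difference ran from -2.17 to -0.82 for Inpp5j and from -1.57 to -0.89 for Apom. Other probe sets had the opposite sign for Syne1, Igfbp5, Tktl1, Crispld2 and C2. The plot of the largest changes shows how dim genes spread more between replicates than bright ones.

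**Figure D2:**
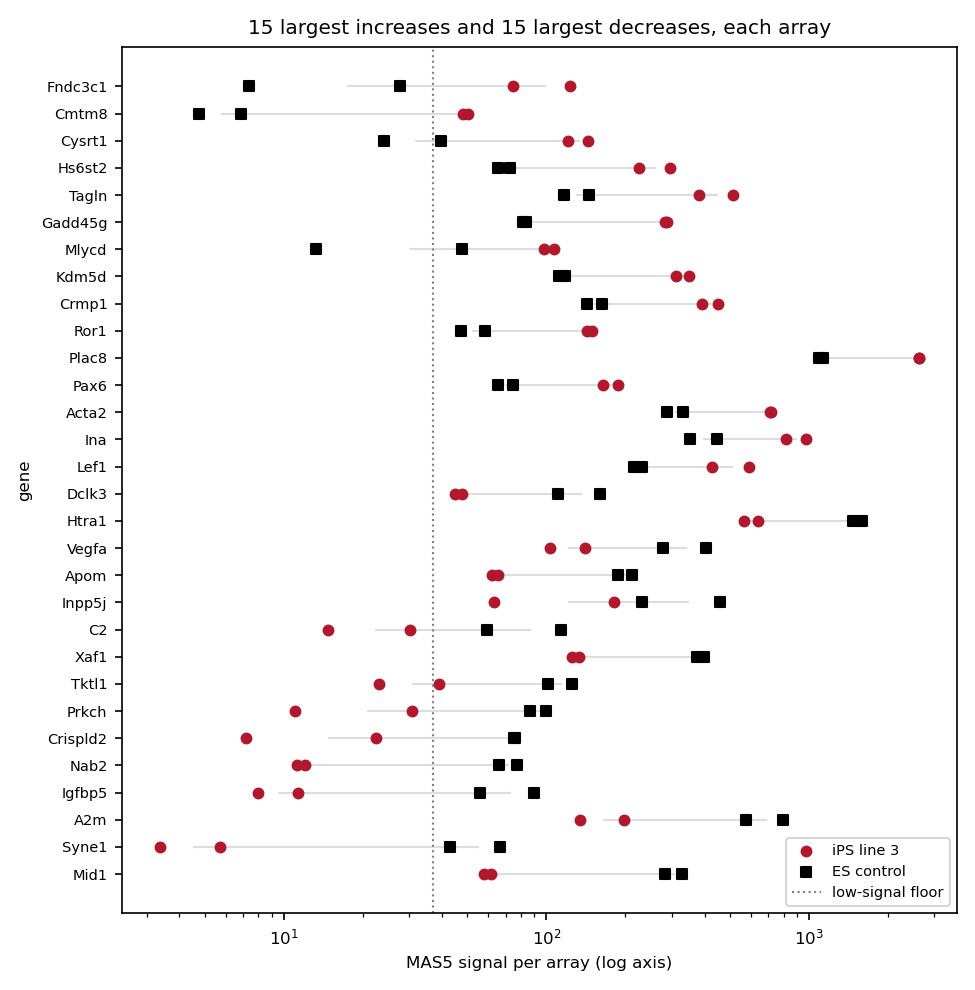
MAS5 signal on a log axis for the 15 largest increases and 15 largest decreases (rows), with each array of iPS line 3 as a red circle and each array of the ES control as a black square. A grey line joins the group means and the dotted line marks the floor of 37.1. The rows were chosen for having no overlap between the 2 groups, and the 2 arrays of a group lie furthest apart in dim genes.

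Some genes of glycolysis and of the response to low oxygen were lower in iPS line 3. Of 27 measured members of this list, 9 fell, 1 rose and 17 were not called, against 2.57% lower and 1.59% higher over all genes tested. The median difference was -0.23, against -0.01 over all genes. Once arrays were centred, 6 fell and 1 rose, as with no filter on low signals, and with averaged probe sets 8 fell and 0 rose. Vegfa, the endothelial growth factor gene, had 103 and 140.3 in iPS line 3, against 404 and 279 in the ES control (-1.39 ± 0.19, limma adjusted p = 0.00158). Hk1, the hexokinase that opens glycolysis, had 434 and 483 in iPS line 3 and 791 and 802 in the ES control (-0.78 ± 0.10, limma adjusted p = 0.00071). Both genes were lower in both arrays of iPS line 3, with no overlap, as in every called gene. Ero1a, an oxidase of protein folding in the endoplasmic reticulum, had 900.1 and 924 in iPS line 3 and 1513 and 1471 in the ES control (-0.70 ± 0.08, limma adjusted p = 0.000296). Bnip3, a receptor for the removal of mitochondria, had 1244 and 1259.6 in iPS line 3 and 1838 and 1938 in the ES control (-0.59 ± 0.07, limma adjusted p = 0.000542). The replicates of these 2 genes lay within a narrow range in each group.

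The other members that fell were named after their values were seen. Egln3, an oxygen sensor that marks HIF for destruction, had 277 and 298 in iPS line 3 and 404 and 413 in the ES control (-0.49 ± 0.10). Ddit4, an inhibitor of mTORC1, had 969 and 1018 in iPS line 3 and 1300.4 and 1447 in the ES control (-0.46 ± 0.07). The glycolytic enzyme genes Pfkp (-0.39 ± 0.09), Aldoa (-0.25 ± 0.06) and Tpi1 (-0.22 ± 0.06) fell by less. Pdk1, a kinase that keeps pyruvate out of the mitochondrial cycle, went the other way, with 3808 and 4023 in iPS line 3 and 2729.9 and 2573 in the ES control (0.56 ± 0.08, limma adjusted p = 0.00229). The differences of the lactate dehydrogenase gene Ldha (-0.09), the glucose transporter gene Slc2a1 (-0.17) and Pgk1 (-0.06) did not pass. The number of lower members was 5 and 6 without replicate 1 or 2 of iPS line 3 and 5 and 4 without replicate 1 or 2 of the ES control, and Bnip3, Ero1a, Hk1, Vegfa and Pdk1 kept the call under each omission. Without the variance trend the count was 0.

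The start-site windows of 3 of these genes are shown because the core HIF letters recur in them. A window covers 250 bases before to 50 after a RefSeq gene start on GRCm38.p6, printed 5' to 3' on the gene's strand with each ACGTG or GCGTG, on either strand, in capitals (CACGT and CACGC are the same letters read on the other strand, and overlapping matches run together). Bnip3 lies at chr7:138909457-138909756 on the minus strand with 5 matches, Ero1a at chr14:45318523-45318822 on the minus strand with 3, and Pdk1, the member that rose, at chr2:71872974-71873273 on the plus strand with 2 in the first of its windows.
Bnip3: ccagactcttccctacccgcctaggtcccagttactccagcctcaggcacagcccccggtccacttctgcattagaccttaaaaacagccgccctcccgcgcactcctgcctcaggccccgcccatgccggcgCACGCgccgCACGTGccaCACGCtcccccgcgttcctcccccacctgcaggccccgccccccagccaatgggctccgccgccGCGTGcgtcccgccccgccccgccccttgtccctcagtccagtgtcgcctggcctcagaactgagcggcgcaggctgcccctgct
Ero1a: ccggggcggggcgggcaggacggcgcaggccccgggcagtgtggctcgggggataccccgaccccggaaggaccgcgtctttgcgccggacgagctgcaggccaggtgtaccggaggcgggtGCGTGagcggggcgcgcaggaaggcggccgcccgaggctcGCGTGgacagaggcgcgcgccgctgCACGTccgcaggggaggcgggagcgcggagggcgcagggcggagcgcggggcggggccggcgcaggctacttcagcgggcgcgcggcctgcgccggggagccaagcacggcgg
Pdk1: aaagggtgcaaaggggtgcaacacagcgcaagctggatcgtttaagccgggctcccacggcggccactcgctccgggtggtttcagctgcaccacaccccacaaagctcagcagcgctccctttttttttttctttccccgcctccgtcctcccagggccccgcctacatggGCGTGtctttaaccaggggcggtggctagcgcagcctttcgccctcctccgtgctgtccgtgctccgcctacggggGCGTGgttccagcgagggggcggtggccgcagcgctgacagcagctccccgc
Of the 9 lower genes, 8 had a match in at least 1 window, and Tpi1 had none. Such matches are common: 43.8% of 32851 windows hold one, as do 65.0% of the 11275 tested genes with a window. A match is a description of the letters, and the member that rose holds it too.

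Genes of this list also differed between iPS line 3 and the other iPS lines. The ES arrays do not enter these differences, but they enter the variance of the fit. iPS line 3 was below iPS line 1 in 15 of the 27 members and below iPS line 2 in 25, where 1.06% and 19% of all genes were lower. Bnip3 had 1244 and 1259.6 in iPS line 3, against 3085 and 3017 in iPS line 1 and 13391 and 12054 in iPS line 2 (differences of -1.28 and -3.33, limma adjusted p = 3.18e-06 and 2.66e-11). The 3 lines were fully separated for this gene. Against the ES control, the list's median was 0.20 in iPS line 1 and 1.11 in iPS line 2, each sharing the ES arrays with iPS line 3. The beta-actin ratio was highest in iPS line 2 (1.74 and 1.79), and its part in that line's values was not tested. In the plot of the called members, iPS line 3 is the lowest group for the 9 genes that fell. These were chosen for being low in iPS line 3, so that rank is in part fixed by the choice.

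**Figure D3:**
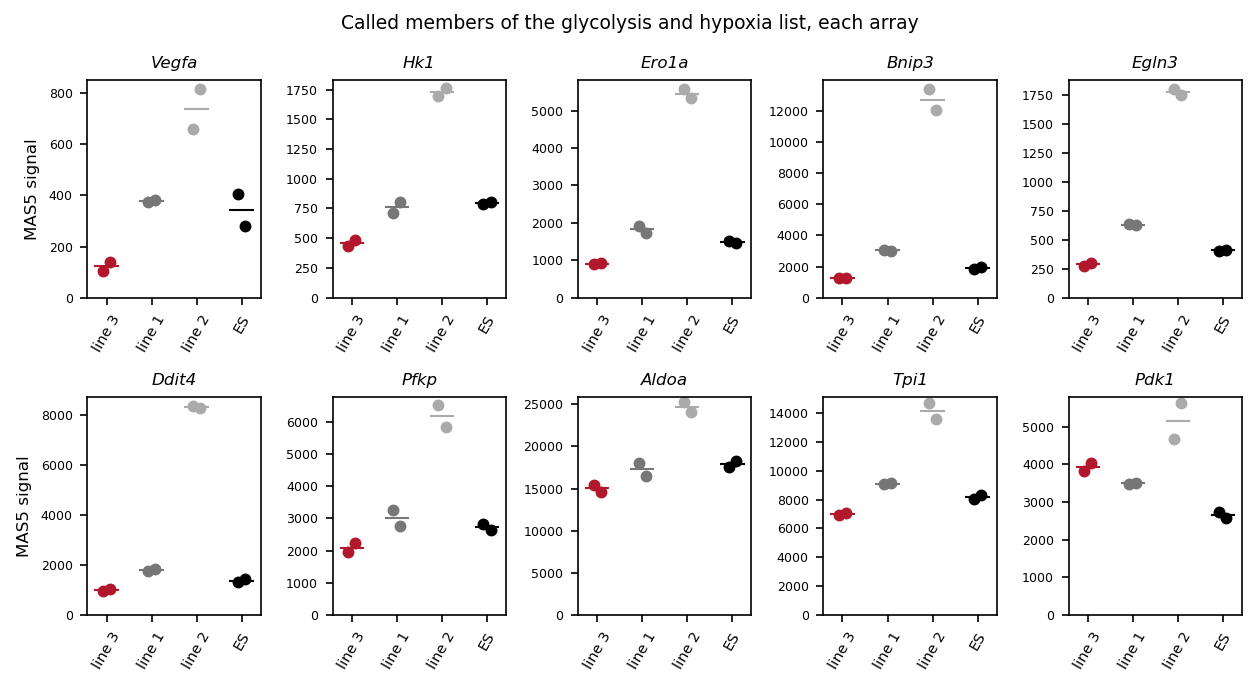
MAS5 signal (vertical axes from 0) of the 10 called members of the glycolysis and hypoxia list in iPS line 3 (red), iPS line 1 and iPS line 2 (greys) and the ES control (black), with 1 point per array and a line at the mean of 2. iPS line 3 is lowest in the 9 panels of genes chosen for being lower than in the ES control, Bnip3 at 1244 and 1259.6 for instance. iPS line 2 is highest in all 10.

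The core pluripotency factors did not differ detectably between iPS line 3 and the ES control. Pou5f1 had 11391 and 11226 in iPS line 3 and 12035 and 11786 in the ES control (-0.07 ± 0.06, limma adjusted p = 0.592). Sox2 (0.02 ± 0.06), Nanog (-0.16 ± 0.07), Klf4 (-0.04 ± 0.06) and Myc (-0.08 ± 0.17) did not pass either. Lin28a, an RNA-binding protein that blocks let-7 microRNA maturation, was the 1 member of 6 that rose, with 3594 and 3253 in iPS line 3 and 2599.7 and 2652 in the ES control (0.38 ± 0.08, limma adjusted p = 0.0203). Its call was lost without replicate 1 of iPS line 3 (0.31), without either ES array, and when a gene's probe sets were averaged. Over all genes 1.59% were higher and 2.57% lower.

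Of 20 naive pluripotency factors, 4 fell and 1 rose, against 2.57% lower and 1.59% higher over all genes, and 2 fell once arrays were centred. Nr0b1, the X-linked gene for the nuclear receptor Dax1, had 4811 and 4990.3 in iPS line 3, against 6805 and 6677 in the ES control (-0.46 ± 0.08, limma adjusted p = 0.00729). The difference of Nr0b1 from the same ES arrays was -0.47 in iPS line 1 and -1.34 in iPS line 2. The list's medians in those lines were -0.14 and -0.31. Prdm14, which restrains de novo DNA methylation, had 889.9 and 901 in iPS line 3 and 1206 and 1234 in the ES control (-0.44 ± 0.08). Tbx3 (-0.33 ± 0.06) and Tfcp2l1 (-0.23) were also lower, and Gbx2, a target of LIF and STAT3, was higher (0.48 ± 0.11). The list's median was -0.13, and on leaving out an array of iPS line 3 or the ES control at most 1 member was called.

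Genes of the egg and early embryo changed in both directions. Of 14 measured members of the preimplantation list, 3 fell and 1 rose, where 2.57% of all genes were lower and 1.59% higher. Obox6, an oocyte homeobox gene, had 489 and 472 in iPS line 3, against 1061 and 1112 in the ES control (-1.16 ± 0.11, limma adjusted p = 0.000208). Khdc3 and Ooep encode parts of the subcortical maternal complex of the egg. Khdc3 had 794 and 770.1 in iPS line 3 and 1642 and 1577 in the ES control (-1.03 ± 0.08, limma adjusted p = 6.73e-05), and Ooep fell by 0.37 on the log2 scale. Dppa3, a maternal factor that protects DNA methylation in the zygote, rose, with 2967 and 2308 in iPS line 3 and 1513 and 1586 in the ES control (0.75 ± 0.11). Obox6, Khdc3 and Dppa3 kept the call on leaving out each array, and Ooep lost it without replicate 2 of iPS line 3 or of the ES control (-0.44 to -0.30).

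Markers of the formative and primed state, which follows the naive one in the embryo, included 3 that rose and 1 that fell of 18 (all genes: 1.59% higher, 2.57% lower). Dnmt3b, the de novo DNA methyltransferase, had 11417 and 12648 in iPS line 3, against 6536 and 6833 in the ES control (0.85 ± 0.07, limma adjusted p = 0.000108). Lef1, through which Wnt signals reach their target genes, had 426 and 592 in iPS line 3 and 231 and 215 in the ES control (1.13 ± 0.16, limma adjusted p = 0.00186). Both genes kept the call on leaving out each array, while Sox11 (0.33 ± 0.08) and Foxd3 (-0.48 ± 0.12) lost theirs without any 1 of the 4 arrays (0.29 to 0.38 and -0.55 to -0.41).

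Among 13 DNA methylation and demethylation enzymes, 2 rose and 2 fell (all genes: 1.59% and 2.57%), and 1 rose and 1 fell once arrays were centred. Dnmt3b, above, and the gene of its cofactor, Dnmt3l, rose, Dnmt3l with 2592 and 2595 in iPS line 3 and 2159 and 2074 in the ES control (0.29 ± 0.07, limma adjusted p = 0.0373). Tet2, which oxidises methylcytosine, fell (-0.28 ± 0.07), as did the stress gene Gadd45b (-0.48 ± 0.08). iPS line 3 also stood above iPS line 1 and iPS line 2 for both methyltransferase genes. Dnmt3l had 1838 and 1818 in iPS line 1 and 897 and 864 in iPS line 2 (iPS line 3 higher by 0.50 and 1.55, limma adjusted p = 0.00298 and 2.4e-08). Dnmt3b had 8844 and 8537 in iPS line 1 and 5492 and 6274 in iPS line 2 (iPS line 3 higher by 0.47 and 1.03, limma adjusted p = 0.00681 and 8.86e-07). Against the ES control, Dnmt3l and Tet2 lost the call without any 1 of the 4 arrays, and Gadd45b without replicate 2 of either group (-0.54 to -0.41).

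Imprinted genes were changed in part. Some mouse iPS lines are known to silence the maternally expressed RNAs of the Dlk1-Dio3 region, and here 2 of them, Rian and Meg3, rose. Rian had 2909 and 2537 in iPS line 3, against 1934 and 1785 in the ES control (0.54 ± 0.08, limma adjusted p = 0.00251). Meg3 had 4371 and 4487 in iPS line 3 and 3283 and 3075 in the ES control (0.48 ± 0.08, limma adjusted p = 0.00682), and Mirg did not pass (0.58 ± 0.16). Both called transcripts lay above the ES control in both arrays of iPS line 3, as every gene called higher did. Both lost the call when a gene's probe sets were averaged, and 1 of the 3 measured members of the region was then called. Of 31 other imprinted genes, 5 rose and 3 fell, against 1.59% and 2.57% of all genes, and with averaged probe sets 3 rose and 2 fell. Phlda2, a growth-limiting gene of the placenta, had 3591 and 3723 in iPS line 3 and 2004 and 2068 in the ES control (0.84 ± 0.08), and Peg3 (0.55 ± 0.07), Mest (0.55), Sfmbt2 (0.51 ± 0.07) and Grb10 (0.34) also rose. Zdbf2 had 599.9 and 527 in iPS line 3, against 1115 and 975 in the ES control (-0.88 ± 0.12, limma adjusted p = 0.00186), and Mcts2 (-0.45) and Plagl1 (-0.27) were lower as well. Meg3 lost its call without replicate 2 of iPS line 3 or of the ES control (0.43 to 0.52), and Grb10, Mcts2 and Plagl1 lost theirs on leaving out at least 1 array.

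Of 25 germline genes, 5 rose and 2 fell, where 1.59% of all genes were higher and 2.57% lower. Dmrt1, a transcription factor of the testis, had 1979 and 2127 in iPS line 3, against 1303 and 1255 in the ES control (0.68 ± 0.07, limma adjusted p = 0.000296). Tdrd12 (0.45 ± 0.09), the meiosis genes Sycp1 (0.59) and Stra8 (0.41), and Dnmt3l were also higher, and Dazl (-0.54 ± 0.10) and Kit (-0.44 ± 0.10) were lower. Dmrt1 kept its call on leaving out each array, and the other 6 did not.

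Neural markers were the lineage list with the highest median. Of 16 measured members 6 rose and 0 fell, with a median of 0.43, against 1.59% higher, 2.57% lower and a median of -0.01 over all genes. Ina, a neurofilament gene, had 971 and 818 in iPS line 3, against 352 and 448 in the ES control (1.14 ± 0.13, limma adjusted p = 0.000359), and all 3 of its probe sets were called higher. Pax6, a transcription factor of neural progenitors, had 188 and 165 in iPS line 3 and 65.6 and 74.3 in the ES control (1.20 ± 0.23, limma adjusted p = 0.0127), but its other 2 probe sets had the opposite sign. The neurofilament gene Nefl (0.51 ± 0.10), the microtubule regulator gene Stmn2 (0.31 ± 0.06), the neuronal tubulin gene Tubb3 (0.75 ± 0.18) and the Notch ligand gene Dll1 (0.88 ± 0.23) rose as well. With 1 array left out, the difference ran from 0.43 to 1.33 for Dll1 and from 0.52 to 0.98 for Tubb3. Sox1, the earliest neural plate marker, had 13.6 and 39.0 in iPS line 3 and 94.4 and 70.5 in the ES control and did not pass (-1.37 ± 0.42, limma adjusted p = 0.101). Over the 7 neural markers used to look for other cells, of which 6 were measured and 0 were under the floor in all 4 arrays, the summed signal was 983 to 1007 in iPS line 3 and 616 to 717 in the ES control. More cells of a type and more RNA per cell cannot be told apart in these bulk samples. When a gene's probe sets were averaged 1 member was called, and on leaving out an array of either group 1 to 3 were, Ina in each case.

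A minority of the epithelial genes rose: 4 of 15 members rose and 0 fell, against 1.59% higher and 2.57% lower over all genes, and 11 were not called. Esrp1, a splicing regulator of epithelial cells, had 1147 and 1061 in iPS line 3, against 510.2 and 494 in the ES control (1.12 ± 0.09, limma adjusted p = 6.73e-05). The adhesion gene Epcam had 6249 and 6245 in iPS line 3 and 4375 and 4559 in the ES control (0.48 ± 0.06). The partner keratins Krt8 (0.62 ± 0.08) and Krt18 (0.37 ± 0.07) rose too. Krt8 had 1179.5 and 1103 in iPS line 3, 2579 and 2593 in iPS line 1, 1561 and 1587 in iPS line 2 and 715 and 759 in the ES control. iPS line 3 was thus between the ES control and the other iPS lines, and lower than iPS line 1 by -1.17 and than iPS line 2 by -0.46 (limma adjusted p = 1.03e-05 and 0.00062). Krt18 lost its call against the ES control without any 1 of the 4 arrays (0.35 to 0.39).

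Contractile actin genes gave 2 increases, Tagln and Acta2, and 1 decrease among 20 members, with a median of 0.26. For this list and the fibroblast list below, the shares over all genes were 1.59% higher and 2.57% lower. The decrease was in the secreted matrix gene Ccn1 (-0.46 ± 0.08), which lost its call without replicate 2 of the ES control (-0.52 to -0.41 over the omissions). Acta2 had 1669.5 and 1745 in iPS line 1 and 1173 and 1146 in iPS line 2, so that iPS line 3 was lower by -1.24 and -0.69 (limma adjusted p = 2.58e-05 and 0.000147). Of 17 measured fibroblast and mesenchymal markers, limma called 0 higher and the fibronectin gene Fn1 fell (-0.33 ± 0.07, not called without any 1 of the 4 arrays), and centred arrays gave 1 higher and 0 lower. Of 10 defining fibroblast markers, 5 lay at or under the floor in all 4 arrays (Col1a1, Twist2, Prrx1, Postn and Dcn). Their summed signal over all 10 was 274 to 283 in iPS line 3 and 234 to 265 in the ES control.

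Few markers of the extraembryonic and mesendodermal lineages changed, where 1.59% of all genes were higher and 2.57% lower. Of 13 trophoblast markers Ets2 fell, with 511 and 453 in iPS line 3 and 1017 and 956 in the ES control (-1.02 ± 0.10, limma adjusted p = 0.000208), while Cdx2 (0.58 ± 0.38) and Gata3 (-0.99 ± 0.60) did not pass. Of 18 primitive endoderm markers, the basement membrane genes Nid1 (-0.84 ± 0.08) and Sparc (-0.50 ± 0.06) fell and the collagen chaperone gene Serpinh1 rose (0.44 ± 0.07). Serpinh1 lost its call without replicate 2 of the ES control (0.41 to 0.47 over the omissions). limma called 0 of 11 primitive streak and mesendoderm markers, and 0 had an unadjusted p under 0.05. The defining markers of primitive endoderm summed to 351 to 386 in iPS line 3 and 409 to 422 in the ES control, those of trophoblast to 656 to 679 in iPS line 3 and 632 to 752 in the ES control, and those of mesendoderm to 532 to 565 in iPS line 3 and 632 to 676 in the ES control.

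Signalling lists were mixed, and all counts here stand against 1.59% higher and 2.57% lower over all genes. Of 17 Nodal and Lefty genes, 2 rose and 1 fell. Lefty1, an inhibitor of Nodal, had 1185 and 1060.3 in iPS line 3, against 510.3 and 662 in the ES control (0.93 ± 0.11, limma adjusted p = 0.000542), Lefty2 rose (0.39 ± 0.07), and Pcsk6, a protease that matures Nodal, fell (-0.43 ± 0.11). Of 18 BMP and Id genes 3 fell, the inhibitory Smad gene Smad6 (-0.75 ± 0.15), Id4 (-0.59 ± 0.10) and the receptor gene Bmpr2 (-0.37 ± 0.09), and 0 rose. Of 13 Wnt targets, Sp5 (0.60 ± 0.13) and Ccnd1 (0.37 ± 0.06) rose, and Axin2 (0.47 ± 0.18) did not pass. In the LIF and STAT3 list of 16, Gadd45g and the feedback gene Socs2 (0.28 ± 0.06) rose and Ccnd3 fell (-0.57 ± 0.07), although 2 other probe sets of Ccnd3 and 2 of Socs2 had the opposite sign. Lefty1, Gadd45g and Ccnd3 kept their calls on leaving out each array, and the other genes of this paragraph lost theirs on leaving out at least 1.

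Of 24 FGF-ERK feedback and immediate early genes, 4 fell and 1 rose (all genes: 2.57% lower, 1.59% higher), and 1 fell once arrays were centred. Egr1, an immediate early transcription factor, had 2881 and 3425 in iPS line 3, against 1986 and 1925 in the ES control (0.68 ± 0.09, limma adjusted p = 0.000908). Dusp1, a phosphatase of MAP kinases (-0.30 ± 0.07), Ier3 (-0.60 ± 0.14), Phlda1 (-0.64 ± 0.13) and Atf3 (-0.76) fell. With 1 array left out, the difference ran from -0.85 to -0.36 for Ier3 and from -1.07 to -0.45 for Atf3. The ERK feedback gene Spry2 did not pass (-0.28 ± 0.07, limma adjusted p = 0.0519). Among 21 G1 cyclins, kinases and inhibitors, the D-type cyclins moved in different directions: Ccnd2, with 362 and 339 in iPS line 3 and 154 and 180.3 in the ES control (1.02 ± 0.19), and Ccnd1 rose, and Ccnd3 had 2153 and 2111 in iPS line 3 and 3223 and 3100.0 in the ES control. Of these, Egr1 and Ccnd3 kept the call on leaving out each array, and Ccnd2 was not called without either array of iPS line 3 or without replicate 1 of the ES control (0.91 to 1.12).

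In metabolism beyond glycolysis, the clearest increases were those of serine synthesis. Psat1, Phgdh and Psph encode its 3 enzymes, and all 3 rose. Psat1 had 10685 and 10597 in iPS line 3, against 6488 and 7137 in the ES control (0.64 ± 0.06, limma adjusted p = 0.000208). Phgdh had 6341 and 6379 in iPS line 3 and 4443 and 4615 in the ES control (0.49 ± 0.06, limma adjusted p = 0.000522). The difference of Psph was 0.40 ± 0.09, and that of the stress gene Nupr1 was 0.40 ± 0.08. These were the 4 increases among 30 members of the integrated stress response and serine list, with 0 decreases, where 1.59% of all genes were higher and 2.57% lower. Psph and Nupr1 were not called on leaving out some arrays, Psph at 0.24 to 0.56 and Nupr1 at 0.35 to 0.46.

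Oxidative phosphorylation subunits gave 0 calls of 39 in limma, where 4 had an unadjusted p under 0.05, with a median of 0.04, and Uqcrfs1 had the smallest adjusted p (0.17 ± 0.06, 0.15). Of 19 cholesterol synthesis genes, Msmo1 (-0.45 ± 0.07) and Hsd17b7 (-0.59 ± 0.14) fell, and Msmo1 turned to 0.07 with the mean of all its probe sets. Hsd17b7 lost its call without any 1 of the 4 arrays (-0.72 to -0.46) and Msmo1 without replicate 1 of either group (-0.53 to -0.37). Of 20 glutathione, thioredoxin and metallothionein genes, Gsto1, a glutathione transferase gene, fell, with 4921 and 5274 in iPS line 3 and 9179.5 and 9007 in the ES control (-0.83 ± 0.09, limma adjusted p = 0.000312). Of 22 p53 targets, Trp53inp1 (-0.38 ± 0.07), Rrm2b (-0.52 ± 0.13) and Apaf1 (-0.43 ± 0.10) fell and 0 rose, and all 3 lost the call without any 1 of the 4 arrays, and 1 fell once arrays were centred. Of 22 interferon-inducible genes, Ifitm1 rose (0.37 ± 0.07), and Xaf1 and Ifitm3 (-0.22 ± 0.05) fell. Ifitm1 (0.30 to 0.44) was not called under 3 of the 4 omissions and Ifitm3 (-0.25 to -0.20) under any, while Xaf1 was called under each. Over all genes 1.59% were higher and 2.57% lower. The plot of the lists sets these side by side.

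**Figure D4:**
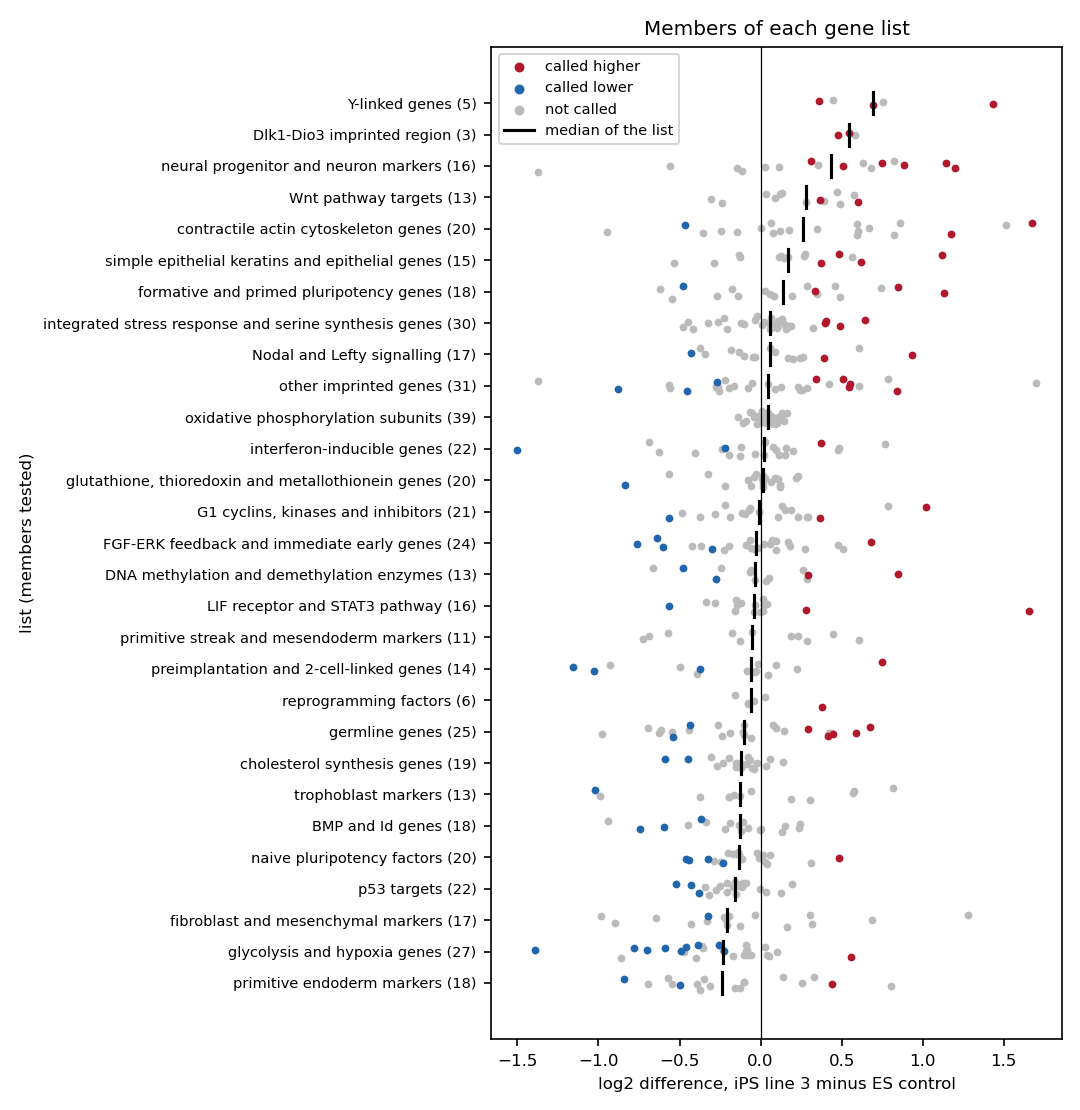
Each point is a measured member of a gene list (rows, with the number of members tested), placed at its log2 difference of iPS line 3 minus the ES control and coloured red where called higher, blue where called lower and grey otherwise. Black ticks are list medians, which run from -0.24 for primitive endoderm markers to 0.69 for Y-linked genes, with -0.23 for glycolysis and hypoxia genes and 0.43 for neural markers.

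Chromosome X held a larger share of called genes than the autosomes did as a whole. Of 458 tested genes annotated to chromosome X, called X-linked here, 29 were higher and 10 lower in iPS line 3 (8.52%). Among 13539 genes outside X and Y, 3.99% were called. The median difference over all X-linked genes was 0.01, near that of all genes, and the difference in share was not tested. Beside Hs6st2 and Fndc3c1, the genes that rose included Armcx2, with 2468 and 2722 in iPS line 3 and 1411 and 1499 in the ES control (0.83 ± 0.09, limma adjusted p = 0.000296). Klhl13, a gene for an adaptor of cullin ubiquitin ligases, had 8061 and 8472 in iPS line 3 and 4887 and 4903 in the ES control (0.75 ± 0.06, limma adjusted p = 6.73e-05). Rlim, a ubiquitin ligase that promotes X inactivation in female cells, had 3178 and 3181 in iPS line 3 and 2268 and 2167 in the ES control (0.52 ± 0.08). Beside Mid1, the decreases included the glypican gene Gpc4 (-0.66 ± 0.09) and Erdr1 (-0.67 ± 0.07). These X-linked genes, and those on Y below that no list holds, were named after their values were seen. The number called higher was 11 without either array of iPS line 3, and 11 and 13 without replicate 1 or 2 of the ES control. It was 19 with averaged probe sets and 1 without the variance trend.

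Of the 29 X-linked genes that rose, 1 was also higher in iPS line 3 than in iPS line 1 and 12 were higher than in iPS line 2. The shares over all genes were 0.35% and 12.1%. These genes were chosen for being high in iPS line 3, so the counts are descriptions, and nothing is read from either direction. Called or not, 28 of the 29 lay above the ES control in iPS line 1 and 24 in iPS line 2. Against the same ES arrays, iPS line 1 had 15 X-linked genes higher and 10 lower (5.46% in all), where 1.21% of all genes were higher and 1.12% lower (2.34%). iPS line 2 had 66 higher and 50 lower (25.3%), where 16.1% of all genes were higher and 10.6% lower (26.7%). The share of X-linked calls was thus above that of all genes in iPS lines 3 and 1 and not in iPS line 2.

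Of 7 genes annotated to chromosome Y, 4 were higher in iPS line 3, where 1.59% of all genes were. Kdm5d, a histone demethylase gene, had 311 and 349.6 in iPS line 3, against 111 and 117 in the ES control (1.43 ± 0.15, limma adjusted p = 0.000296). Uba1y had 551 and 556 in iPS line 3 and 343 and 363 in the ES control (0.63 ± 0.12), and Uty (0.69 ± 0.17) and the translation factor gene Eif2s3y (0.36 ± 0.09) also rose. The differences of iPS line 1 and iPS line 2 from the same ES arrays were 1.08 and 1.55 for Kdm5d and -0.28 and 0.79 for Uba1y. They were 0.48 and 0.09 for Uty and -0.01 and 0.32 for Eif2s3y. Eif2s3y, at 1188 and 1195 in iPS line 3 and 888 and 966 in the ES control, was well above the floor in both groups, which are labelled male. Kdm5d kept its call on leaving out each array, while Uba1y (0.59 to 0.67), Uty (0.55 to 0.83) and Eif2s3y (0.30 to 0.42) lost theirs without any 1 of the 4.

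**Figure D5:**
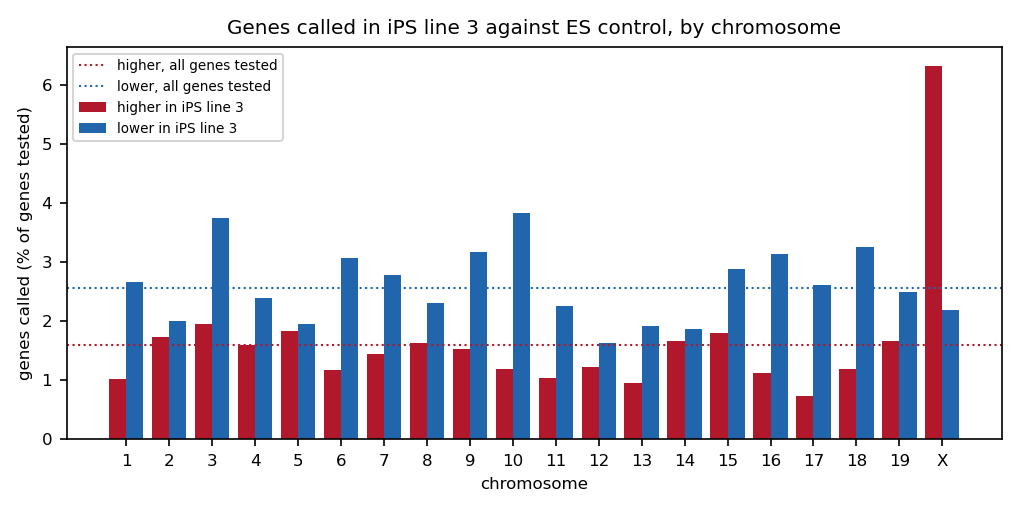
Share of tested genes called higher (red bars) and lower (blue bars) in iPS line 3 against the ES control on each chromosome, in percent, with dotted lines at 1.59% and 2.57% for all genes tested. Chromosome Y, with 7 genes, is not drawn. On X, 29 of 458 genes were higher, the tallest bar.

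Set against the other iPS lines, iPS line 3 was close to iPS line 1 and far from iPS line 2. limma called 198 genes between iPS line 3 and iPS line 1 (1.41%, 49 higher or 0.35% and 149 lower or 1.06%) and 4361 between iPS line 3 and iPS line 2 (31.1%, 1701 higher or 12.1% and 2660 lower or 19%). The share of higher calls against iPS line 2 was 58.7% with each array centred on its median. Against iPS line 1, 17 genes were called without the variance trend, and 98 and 77 without replicate 1 or 2 of iPS line 3 and 52 and 76 without replicate 1 or 2 of iPS line 1.

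In 39 genes (0.278%) iPS line 3 was above both other iPS lines and in 132 (0.943%) it was below both. The named genes above both included Trh, thyrotropin-releasing hormone, with 1761 and 1615 in iPS line 3, against 1230.1 and 987 in iPS line 1 and 492 and 563 in iPS line 2. Manba, the lysosomal beta-mannosidase, had 8197 and 8507 in iPS line 3, 6067 and 6001 in iPS line 1 and 2873 and 3099 in iPS line 2. Both were also above the ES control (0.81 ± 0.11 and 0.27 ± 0.06), Manba losing that call without any 1 of the 4 arrays. The genes named for lying furthest below both were Bnip3, given above, Ndufa4l2, Ndrg1, Sncb, Anxa2 and Stc2. Ndrg1 had 319 and 324 in iPS line 3, against 809 and 795 in iPS line 1 and 4058 and 4249 in iPS line 2. Sncb, a synuclein gene, had 50.2 and 10.5 in iPS line 3, 147 and 302 in iPS line 1 and 244 and 126 in iPS line 2, with wide replicates. Ndufa4l2, a mitochondrial protein gene, had 8.05 and 20.6 in iPS line 3, 69.0 and 66.1 in iPS line 1 and 259.7 and 237 in iPS line 2. The glycoprotein hormone gene Stc2 had 56.5 and 55.5 in iPS line 3, 285 and 234 in iPS line 1 and 401 and 356 in iPS line 2. Anxa2, a membrane-binding annexin, had 260.1 and 369 in iPS line 3, 1189 and 948 in iPS line 1 and 2442 and 2062 in iPS line 2. Of these 5, Anxa2 was also lower than the ES control, at 607 and 615 (-0.95 ± 0.15, limma adjusted p = 0.0042), while Ndrg1 (-0.23 ± 0.09), Stc2 (-0.45 ± 0.20), Sncb (-1.73 ± 0.45) and Ndufa4l2 (-0.63 ± 0.37) did not pass.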

How the data were processed

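RNA of 4 mouse cell lines was measured on 8 Affymetrix 3' arrays, 2 per line, and the grouping follows the sample titles. The authors deposited 1 linear intensity for each probe set and array, which the submitters' processing notes credit to MAS5. The labels used here name no version or scaling target, and detection calls were not used. The trimmed mean signal was 500.004 on every array, so the deposited signals share a scale and were used as given. The platform annotation gave 1 gene symbol for 34945 of 45101 probe sets, of which 34741 matched a RefSeq gene (GRCm38.p6), several symbols for 932 and none for 9160, and 64 were controls.

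Probe sets with 1 symbol were kept where 2 or more arrays exceeded 37.1, the 40th percentile of all signals (25733 probe sets). The probe set with the highest mean stood for its gene. Values were taken as log2(signal + 12), which understates the change of dim genes, and 12 is about the 20th percentile. A group-means model over all 8 arrays was fitted with limma 3.58.1 in R 4.3.3 (lmFit, eBayes with an intensity trend, 4 residual degrees of freedom, 12.38 after moderation). Tests were two-sided with Benjamini-Hochberg adjustment over 14004 genes, and an adjusted p under 0.05 is a call. Where the lower group lay at or under 37.1 on all its arrays, the change is "at least N-fold", taken from the higher group's geometric mean and the floor. Contrasts against the other iPS lines test whether the changes from the ES control differ.

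The members, gene lists and tests were chosen with earlier results of these data known. Named genes are the 15 largest called increases and decreases without overlap, up to 4 members of each list with the smallest adjusted p, all reprogramming, Dlk1-Dio3 and Y-linked genes, and up to 6 genes in each direction that differ from both other iPS lines. Clone names were passed over, and any other gene is named because a list count included it or after its value was seen. Data for this contrast with 14004 genes were also simulated. The values were independent and normal, each gene's spread came from the fit itself, and the other groups did not differ. The fit recovered 47.8% of changes of 0.5 log2 units, 64.2% of changes of 1 and 92.4% of changes of 2, with 8 false calls. These data obey the model by design, so the result does not measure false calls among the real arrays. Alternatives covered scaling, pseudocount, filter, probe set choice, variance trend, samples in the fit, the replicate number as a block and each array left out. Promoter windows are from RefSeq, and Tagln had none in the table used.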

Additional observations from a re-analysis of the deposited data

Results flagged for a closer look

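In 27 named genes the change of iPS line 3 from the ES control differed from that of iPS line 1 and from that of iPS line 2 with 1 sign, by limma's test of the line differences, in which the ES arrays cancel out. Values here are the mean of the log2 differences of iPS line 3 from the other lines, and the genes were taken in part for this pattern. Among genes of glycolysis and the hypoxia response this mean was -2.30 for Bnip3, -2.02 for Vegfa, -1.78 for Ero1a and -1.30 for Hk1, and it was -2.49 for Ndufa4l2 and -2.46 for Ndrg1, which are known as HIF targets. It was -2.45 for the synuclein gene Sncb, -2.27 for Anxa2, -2.25 for Stc2, -2.05 for Prkch and -1.53 for A2m. Immediate early and stress genes lay at -1.09 for Ier3, -0.88 for Nupr1, -0.86 for Gadd45b and -0.71 for Dusp1.

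For structural and signalling genes the mean was -0.97 for Acta2, -0.91 for Krt18, -0.82 for Krt8, -0.79 for Lefty1 and -0.50 for Ets2. iPS line 3 was above the other lines by 1.36 for Exoc3l, 1.31 for AF067061, 1.13 for Usp17la, 1.13 for Trh, 1.02 for Dnmt3l, 0.97 for Manba and 0.75 for Dnmt3b. The beta-actin 3'/5' ratio of iPS line 2 was 1.74 and 1.79, against 1.59 and 1.60 in iPS line 3, and its part in these values was not tested.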

How the results depend on the processing

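Of 102 called named genes, 10 kept the call under all 15 alternatives (Hs6st2, Gadd45g, Kdm5d, Plac8, Acta2, Xaf1, Khdc3, Obox6, Esrp1 and Ets2), and 37 kept it under all of them or all but the fit without the variance trend. Over the 146 named genes, 393 alternative values lost a call, 22 gained one and 2 changed sign, Ccnd3 (0.15) and Msmo1 (0.073) when a gene's probe sets were averaged. Beside the 583 calls against the ES control, 22 genes were called without the variance trend, 19 of them among the 583. With averaged probe sets 356 were called, 312 of them among the 583. Leaving out 1 array gave 180 to 262 calls, and 613 genes were called without iPS line 2, an alternative added after seeing the data. Against iPS line 1, 17 genes were called without the trend and 52 to 98 on leaving out 1 array, against 198. The cause of these losses was not tested, beyond the fewer samples of each omission. The other scalings, filters and pseudocounts gave 431 to 673 calls against the ES control, and those against iPS line 2 stayed within 3064 to 4472.

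The labels do not say whether the shared replicate numbers pair the samples. Deviations of same-numbered arrays correlated at -0.01 to 0.03, so they shared no shift over the genes as a whole. A shared shift in a part of the genes was not tested. With the replicate block 595 genes were called against the ES control, 199 against iPS line 1 and 4390 against iPS line 2. Dim signals limit the calls, and 6 of the 15 largest decreases have only a bound.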

Other observations

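Some genes of the lysosome, of fat use and among further HIF targets were lower in iPS line 3. Their 3 lists were put together after the values were seen. An excess over all genes is thus in part set by the choice, and the counts are descriptions. Of 54 measured lysosomal hydrolases and membrane proteins, 12 were lower, 1 was higher and 41 were not called, against 2.57% lower and 1.59% higher over all genes. The median difference from the ES control was -0.19 in iPS line 3, -0.13 in iPS line 1 and 0.24 in iPS line 2. Hexa, a subunit of beta-hexosaminidase, had 2469 and 2222 in iPS line 3, against 3693 and 3479 in the ES control (-0.61 ± 0.07). Ctsc, the protease cathepsin C, had 999 and 1064 in iPS line 3 and 1592 and 1514 in the ES control (-0.59 ± 0.08). Hexa, Ctsc and Psap kept the call on leaving out each array, and 3 to 7 of the lysosomal genes were lower under an omission. With centred arrays 6 were lower, with averaged probe sets 7, with no filter 7 and without the variance trend 0.

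Of 30 genes of fatty acid oxidation and lipid storage, 9 were lower, 0 higher and 21 not called, against 2.57% lower and 1.59% higher over all genes. The median difference from the ES control was -0.11 in iPS line 3, -0.09 in iPS line 1 and 0.14 in iPS line 2. Cpt1a, which admits fatty acids to the mitochondria, had 1235 and 1307 in iPS line 3 and 1994 and 1801 in the ES control (-0.57 ± 0.08), and the fatty acid carrier gene Fabp5 had 3330.2 and 3203 in iPS line 3 and 4568 and 4725 in the ES control (-0.51 ± 0.06). Of 30 further HIF targets, 9 were lower, 0 higher and 21 not called, against the same shares of all genes. The median difference from the ES control was -0.24 in iPS line 3, 0.04 in iPS line 1 and 0.30 in iPS line 2. Among the lower ones was Ak4, a mitochondrial adenylate kinase gene, with 2525 and 2468 in iPS line 3 and 4354 and 4677 in the ES control (-0.85 ± 0.07). On leaving out an array, 3 to 6 of the fat genes and 3 to 7 of the HIF targets were lower, and without the variance trend 0 of either.

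Probe sets with no gene symbol or several were tested apart. Of 5232 such probe sets, limma called 17 higher and 11 lower in iPS line 3, where 1.59% of the 14004 genes were higher and 2.57% lower.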
